A study of Mus musculus with 146 samples.

Results

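The Fc receptors of the macrophage are described here by 6 genes chosen from a fixed list of names: Fcgr1, Fcgr3 and Fcgr4, Fcer1g, Fcgr2b and Fcgrt. They are 6 of the 22721 genes in the deposited count table, and all 6 are among the 10893 genes of the deposited table of variance-stabilised values. The study measured RNA from bone marrow-derived macrophages of 146 outbred CFW mice (stock Crl:CFW(SW)-US_P08) aged 16 weeks, 1 library per mouse, of which 86 were labelled female and 60 male. Marrow cells were grown for 5 days in medium with 25% L929-conditioned medium, which supplies macrophage growth factor, and no group was treated. Libraries carried 7 plate labels (6 libraries on plate 1 and 22 to 24 on each of plates 2, 3, 4, 7, 8 and 10) and 28 date labels. Each mouse is genetically distinct, so the spread over libraries holds genetic, culture and technical differences together. Genotypes and wound healing measurements were not analysed here.

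Fc receptors bind the constant part of antibodies and so couple antibody-coated particles to phagocytosis and cell activation. Fcgr1, Fcgr3 and Fcgr4 encode activating receptors for immunoglobulin G, and they reach the cell surface and signal with the FcR gamma chain encoded by Fcer1g, which carries an activation motif (ITAM) that recruits the kinase Syk. Fcgr2b encodes the inhibitory receptor, whose ITIM recruits phosphatases that damp the same signal. Fcgrt encodes the heavy chain of the neonatal Fc receptor, which pairs with beta-2-microglobulin (B2m) and recycles immunoglobulin G and albumin inside cells.

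Depth ran from 14.5 M to 120.9 M counts per library (median 43.8 M), with M for counts in units of 1e6, and the smallest count of any of the 6 genes in any library was 321, for Fcgrt. All 6 macrophage markers searched were present, with a summed level of 11326 to 24641 CPM (counts scaled to a total of 1e6 per library). Granulocyte precursor markers summed to 75.5 to 1732 CPM. The summed markers of B cells, of T and NK cells and of erythroid cells did not exceed 9.52, 3.02 and 1.22 CPM. Those of mast cells and basophils reached 11.9 CPM, of stromal cells 71.7, of megakaryocytes 117 and of osteoclasts 120.1 CPM. In 6 libraries the Y-linked genes went against the labelled sex (4 labelled female, 2 labelled male), and no pair of libraries was identical. In bulk RNA, fewer cells that express a gene and less RNA per cell cannot be told apart.

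Fcgr2b, Fcgr3, Fcgr4 and Fcer1g lie together on chromosome 1 (GRCm38, at chr1:170958617-170976547, chr1:171051174-171064935, chr1:171018920-171029761 and chr1:171229572-171234365), all on the minus strand except Fcgr4. Fcgr1 lies at chr3:96282909-96293969 and Fcgrt at chr7:45092990-45103851, both on the minus strand. Fcgr2b and Fcgr3 are the most alike: 684 of 782 aligned coding bases (87.5%) were identical, against 67.8% to 69.8% for the other pairs of immunoglobulin G receptor genes. The longest stretches that the coding sequences of Fcgr2b and Fcgr3 have in common are shown because a read that falls within them fits both genes. They encode part of the antibody-binding region. The first runs from exon 3 into exon 4 of each gene (chr1:170967980-170968081 and chr1:170966674-170966700 in Fcgr2b, chr1:171057691-171057792 and chr1:171054167-171054193 in Fcgr3). The second lies in exon 4 (chr1:170966560-170966672 in Fcgr2b and chr1:171054053-171054165 in Fcgr3). Both are written on the coding strand.
Shared stretch of 129 bases: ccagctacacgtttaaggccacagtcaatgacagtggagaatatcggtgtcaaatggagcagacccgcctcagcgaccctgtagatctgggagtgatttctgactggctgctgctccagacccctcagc
Shared stretch of 113 bases: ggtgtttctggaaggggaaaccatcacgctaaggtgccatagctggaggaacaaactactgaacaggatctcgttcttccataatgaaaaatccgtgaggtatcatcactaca
Of all stretches of 50 bases in its exons, Fcgr3 had 9.58% in common with another gene, all of them with Fcgr2b, and Fcgr2b had 6.95%. Fcgr1, Fcgr4, Fcer1g and Fcgrt had 0. How reads within shared stretches were counted is not given in the sources used here, so part of the counts of Fcgr2b and Fcgr3 is uncertain. Fcgr2b also shares 155 exon bases with Gm38204, an antisense gene.

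Among the activating receptors, Fcgr3 was abundant and even, while Fcgr1 was low and the most variable of the 6 genes. Fcgr1 ranged from 24.2 to 110.4 CPM with a median of 52.1 (mean 52.6 ± 16.9, SD, n = 146), and its coefficient of variation was 32.2%. Fcgr3 ranged from 239 to 514 CPM with a median of 332 (mean 337 ± 43.8, SD, n = 146), a coefficient of variation of 13%. Fcgr4 ranged from 21.1 to 61.8 CPM with a median of 31.3 (mean 32.3 ± 6.80, SD, n = 146). The highest library was 4.56 times the lowest for Fcgr1. All 3 of the highest Fcgr1 libraries, at 108, 109 and 110.4 CPM, were labelled female, and they came from 3 plates (4, 10 and 3).

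Fcer1g, the shared signalling chain, had the highest level of all, from 370.4 to 829.9 CPM with a median of 586 (mean 590.1 ± 91.1, SD, n = 146). The inhibitory Fcgr2b ranged from 182 to 667 CPM with a median of 320.4 (mean 333 ± 91.7, SD, n = 146). Its coefficient of variation, 27.6%, was second to that of Fcgr1 among the 6 genes. Fcgrt was the lowest in CPM, from 13.4 to 38.8 with a median of 22.6 (mean 23.3 ± 4.45, SD, n = 146). On the deposited log2 scale the SD of Fcgr1 stood at percentile 94.4 and that of Fcgr2b at percentile 93.3 among the 10893 genes. Fcgr4, Fcgrt, Fcer1g and Fcgr3 stood at percentiles 81.4, 78.5, 72.3 and 62.

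**Figure D1:**
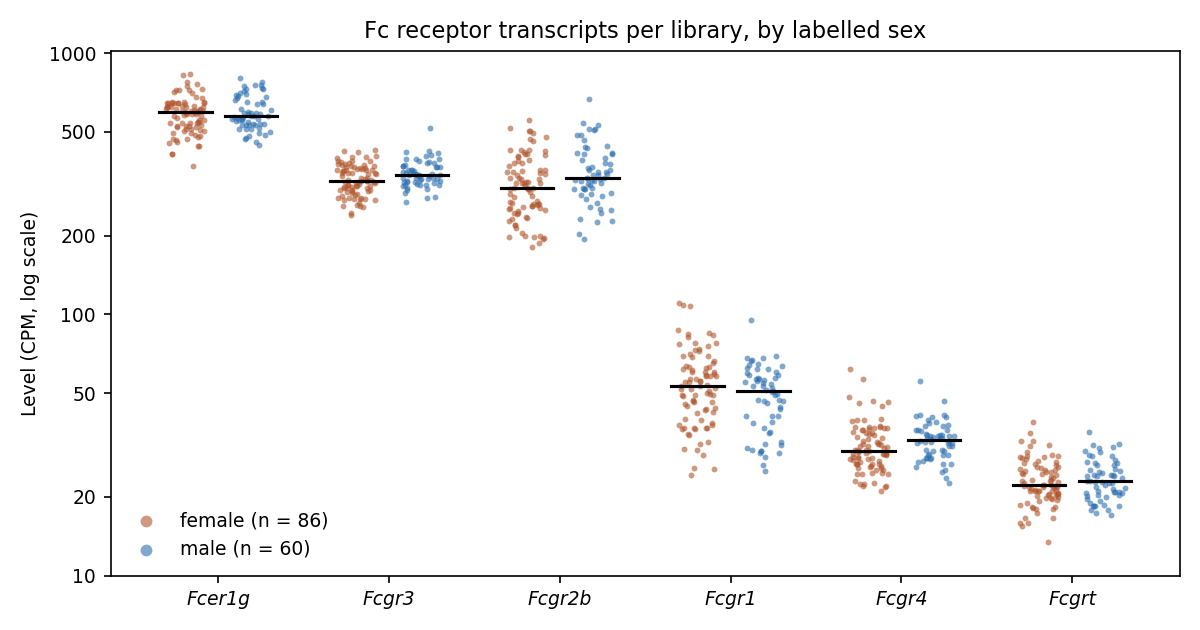
Level of each Fc receptor gene (CPM, log axis) in each library, with labelled females in brown (n = 86) and males in blue (n = 60) and a black bar at each median. Fcer1g is highest (median 586 CPM) and Fcgrt lowest (22.6 CPM), and the sexes overlap for every gene.

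Per kilobase of merged exons the order of the 6 genes was steep. The median level per kilobase was 670.3 CPM for Fcer1g, 191 for Fcgr3, 55.3 for Fcgr2b, 24.9 for Fcgr4, 20.1 for Fcgr1 and 10.8 for Fcgrt. Fcer1g was above each of the other genes in all 146 libraries on this scale. Fcgr2b and Fcgr3 had similar counts, with Fcgr2b ahead in 61 of 146 libraries, but per kilobase Fcgr2b was ahead in 0 of 146. Fcgr1 and Fcgr4 overlapped: Fcgr1 was the higher per kilobase in 29 of 146 libraries, and the gap between their means (20.3 ± 6.54 and 25.7 ± 5.42, SD, n = 146) was within their spread. Fcgr1 was above Fcgrt per kilobase in 132 of 146 libraries. The order was the same when each gene was divided by the length of its principal transcript, although Fcgr2b then rose to a median of 90.4 because its merged exons are 5.79 kb and its principal transcript 3.544 kb.

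Of the counts of the 4 immunoglobulin G receptor genes, Fcgr3 made up a median of 45% (34.7% to 53.3%) and Fcgr2b 43% (30.5% to 58.6%). Fcgr1 made up 6.98% (2.73% to 18.1%) and Fcgr4 4.27% (2.34% to 7.81%). The share of Fcgr1 thus spanned a 6.64-fold range over libraries, against 1.53-fold for Fcgr3.

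Other receptors for antibodies were low. Fcer1a, the ligand-binding chain of the immunoglobulin E receptor, was at 0 in 124 of 146 libraries, and its beta chain Ms4a2 was at 0 in 93. Pigr, which carries polymeric antibody across epithelia, was at 0 in 133 libraries. The Fc receptor-like gene Fcrlb had a median of 5.54 CPM and Fcrls of 20.2 CPM. Trim21, a cytosolic antibody receptor, had a median of 16.2 CPM. B2m, the partner chain of Fcgrt, ranged from 798 to 2607 CPM with a median of 1227.

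The first comparison asked whether the 6 genes differed between the sexes, with plate in the model. The 6 libraries whose Y-linked genes went against the label stayed in their labelled group. In females Fcgr1 had a median of 53 CPM (24.2 to 110.4) and in males 50.7 CPM (25.0 to 95.4). Fcgr2b had a median of 305 CPM (182 to 554) in females and 332 CPM (194 to 667) in males. Fcgr3 had a median of 324 CPM (239 to 425) in females and 342 CPM (269 to 514) in males. The ranges of the sexes overlapped for all of these genes.

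By edgeR's quasi-likelihood test with Benjamini-Hochberg adjustment over 12060 genes, 0 of the 6 genes passed an adjusted p of 0.05, where 5.02% of all genes tested did (2.17% higher and 2.84% lower in males). The nearest was Fcgr3, with a log2 difference (male minus female) of 0.09 ± 0.03 (SE, adjusted p = 0.0761). The log2 difference was 0.15 ± 0.06 for Fcgr2b (adjusted p = 0.156), -0.15 ± 0.07 for Fcgr1 (adjusted p = 0.224) and 0.10 ± 0.05 for Fcgr4 (adjusted p = 0.215), all by edgeR. Fcer1g (0.04 ± 0.04, adjusted p = 0.554) and Fcgrt (0.04 ± 0.04, adjusted p = 0.623) were nearest to 0. Before adjustment 4 of the 6 genes were under 0.05 (Fcgr1, Fcgr2b, Fcgr3 and Fcgr4), as were 2412 of the 12060 genes tested. Limma voom and DESeq2 also called 0 of 6, and 718 and 706 of all genes. With the date label in place of plate the difference of Fcgr1 was -0.05 ± 0.07 (adjusted p = 0.746 by edgeR) and its p before adjustment was 0.503. Without the 24 libraries of plate 10, edgeR called 1 gene, Fcgr3 (0.11, adjusted p = 0.0344).

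The balance of activating to inhibitory transcripts was taken within each library as the log2 ratio of the summed levels per kilobase of Fcgr1, Fcgr3 and Fcgr4 over Fcgr2b. It ranged from 1.25 to 2.90. Without division by length the log2 ratio ranged from -0.50 to 1.19, so which side led depended on the scale in some libraries. The mean was 2.15 ± 0.34 (SD, n = 86) in females and 2.04 ± 0.31 (SD, n = 60) in males. The difference within plates was -0.09 (male minus female), and permuting sex within plates 100000 times gave a two-sided p of 0.122. The difference was negative on 6 of 7 plates, and plate 8 had 0.06. Without the 6 libraries that went against their labelled sex it was -0.08 within plates (two-sided p = 0.163 by the same permutation).

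The second comparison was among plates. All 6 genes differed between plates by edgeR (6 of 6), but 74.8% of all genes tested did as well, so the count says little about these genes. The smallest adjusted p was that of Fcgr3 (1.96e-06), whose plate means ran from 298 ± 31.3 CPM on plate 4 (SD, n = 24) to 356 ± 35.2 on plate 10 (SD, n = 24). Fcer1g also had its lowest mean on plate 4 (515 ± 57.4 CPM, SD, n = 24) and its highest on plate 10 (643 ± 78.3, SD, n = 24; adjusted p = 4.03e-06 by edgeR). Fcgr1 ran in another order. Its lowest mean, 45.4 ± 19.6 CPM (SD, n = 24), was on plate 10 and its highest, 63.2 ± 18.2 (SD, n = 22), on plate 3. Fcgr4 differed least between plates (adjusted p = 0.0378 by edgeR). The plate explained 21.2% of the variance of Fcgr3, 20.4% of that of Fcer1g and 3.56% of that of Fcgr4 (adjusted R squared), with a median of 11.9% over all genes.

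**Figure D2:**
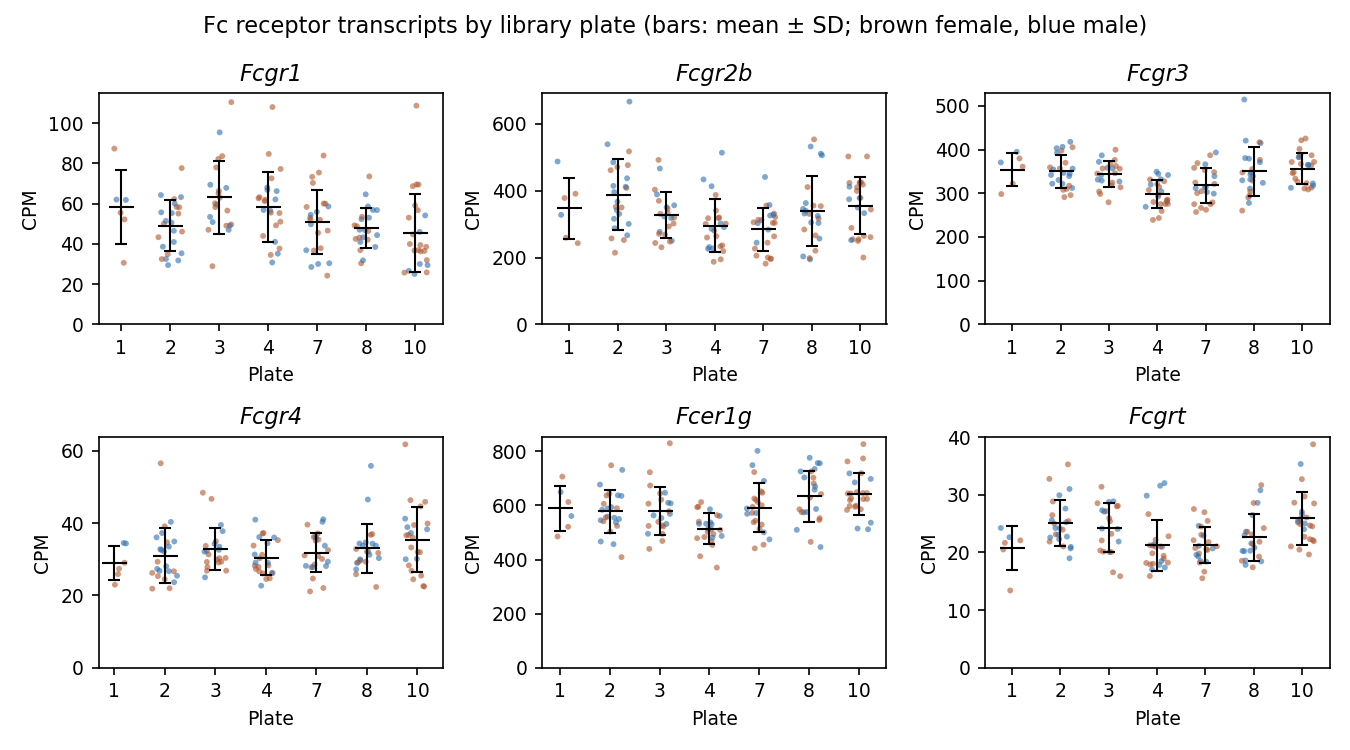
Level (CPM) of each Fc receptor gene by library plate, with 1 point per library (brown female, blue male) and black bars at mean ± SD. Fcgr3 and Fcer1g have their lowest mean on plate 4 (298 and 515 CPM), while Fcgr1 has its highest on plate 3 (63.2 CPM).

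The third comparison asked whether the date labels added to plate and sex. The model held 27 date terms, and 5 of the 6 genes passed (69.2% of all genes tested did). Fcer1g was the exception (adjusted p = 0.144 by edgeR), and it passed when dates were tested with sex alone (adjusted p = 0.0123). Among the 22 date labels with at least 3 libraries, the mean of Fcgr2b ran from 228 ± 37.5 CPM (SD, n = 3, label 2011-03-03) to 476 ± 47.4 (SD, n = 5, label 22/07/2010), a 2.09-fold range. The 3 libraries of the low date had 187, 237 and 261 CPM, and those of the high date had 409 to 539 CPM, so these dates did not overlap. Fcgr1 date means ran from 39.8 ± 11.9 CPM (SD, n = 3, label 18/05/2011) to 86.3 ± 22.3 (SD, n = 3, label 18/11/2010), a 2.17-fold range. These dates did not overlap either, with 30.0 to 53 CPM against 66.4 to 110.4 CPM. The date means of Fcgr3 differed 1.38-fold at most and those of Fcer1g 1.33-fold. The extreme dates were chosen for their values and carry no test. Plate and sex were not removed from these means. For Fcgr1 the low date was on plate 10 and the high date on plate 3. For Fcgr2b the low date was on plates 4 and 10 and the high date on plates 1 and 2. Date and plate therefore cannot be told apart in these ranges. The labels give these as dates of sample collection in mixed formats, in which day and month can be read in more than one way, so they were used as names of groups only.

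Whether the sex difference itself varied by plate was tested as an interaction. By edgeR 0 of the 6 genes passed, all with an adjusted p of 0.996, against 0.0415% of all genes. None of the 6 was under 0.05 before adjustment, the lowest being Fcgrt at 0.249, and no other tool was run for this term.

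Some pairs of the 6 genes were associated over libraries, and not all of them in the same direction. After plate and sex were removed from the deposited log2 values, 9 of 15 pairs passed an adjusted p of 0.05 in both directions of a limma test over all genes. The share of all genes that passed with each gene was 35.6% for Fcgr1, 66.3% for Fcgr2b, 60.8% for Fcgr3, 24.7% for Fcgr4, 26.1% for Fcer1g and 47.2% for Fcgrt. Many genes are therefore associated with Fcgr2b and Fcgr3 in these libraries, so passing with either of them is not particular to the 6 genes. Each pair also had a permutation test of 100000 permutations within plate, in which 1e-05 is the smallest p that can be given.

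The inhibitory Fcgr2b and the activating Fcgr3 were the closest pair, with Pearson r = 0.69 and Spearman rho = 0.69 (n = 146, permutation p = 1e-05 for each). The r within the 6 larger plates was 0.54 to 0.81, and r was 0.68 without the 2 libraries farthest from the median. The part that reads in the stretches printed above have in this value was not tested. Fcgr3 and Fcgr4 followed, with r = 0.48 and rho = 0.48 (permutation p = 1e-05 for each, 0.19 to 0.70 within plates, 0.42 without the 2 farthest libraries). Fcgr3 and Fcgr4 had a shared 50-base content of 0.

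Fcer1g passed with the receptors Fcgr2b and Fcgr3, and not with Fcgr1 or Fcgr4. With Fcgr2b it had r = 0.46 and rho = 0.44 (permutation p = 1e-05 for each, 0.18 to 0.59 within plates, 0.43 without the 2 farthest libraries). With Fcgr3 it had r = 0.41 and rho = 0.40 (permutation p = 1e-05 for each, 0.22 to 0.67 within plates). The pair with Fcgr3 no longer passed with 5 principal components removed (r = 0.25, adjusted p = 0.123 by limma). With Fcgr4 r was 0.10 and with Fcgr1 r was -0.18, and neither passed by limma (adjusted p = 0.374 and 0.0939). Whether these values differ from each other was not tested.

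Fcgr1 stood on the other side of Fcgr2b. That pair had r = -0.30 and rho = -0.28 (permutation p = 0.00023 and 0.00075, n = 146), with -0.67 to -0.14 within the 6 larger plates and -0.27 without the 2 farthest libraries. With the mean of the interferon genes as a covariate r was -0.16 and the pair no longer passed (adjusted p = 0.151 by limma). With the first principal component removed r was -0.11, and with the first 5 removed it was 0.00. Fcgr1 and Fcgr4 had r = 0.23 and rho = 0.21 (permutation p = 0.00666 and 0.0141, 0.08 to 0.45 within plates), and this pair failed the limma threshold when plate 2, 3 or 7 was left out (r = 0.19, 0.23 and 0.25). It also failed with the date label in place of plate (r = 0.24), with no covariate (0.12), with the interferon mean as a covariate (0.19) and with 5 principal components removed (0.24).

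Fcgrt, whose product does not signal through the gamma chain, passed with Fcgr2b (r = 0.40, rho = 0.38, permutation p = 1e-05 for each), Fcgr3 (r = 0.29, rho = 0.29, permutation p = 0.00033 and 0.00039) and Fcer1g (r = 0.22, rho = 0.23, permutation p = 0.00844 and 0.00627). The pair with Fcer1g failed the limma threshold without plate 1, 2, 3, 4 or 7 (r = 0.15 to 0.23). It also failed with the date label in place of plate (r = 0.19), with the interferon mean as a covariate (0.19), and with the first (0.14) or 5 (0.01) principal components removed. With the first component removed Fcgrt no longer passed with Fcgr2b (r = 0.20) or Fcgr3 (0.08). With 5 principal components removed, the r of Fcgrt was -0.01 with Fcgr2b and 0.03 with Fcgr3. The first principal component of all genes held 21.6% of the variance and had r = -0.70 with Fcgr2b, -0.61 with Fcgr3, -0.39 with Fcgrt and 0.32 with Fcgr1. The part of that component in the pair values was not tested beyond its removal. The pairs Fcgr2b with Fcgr3, Fcgr2b with Fcer1g and Fcgr3 with Fcgr4 passed in every alternative that gave a test, with the lowest r of Fcgr2b and Fcgr3 at 0.44, that of Fcgr2b and Fcer1g at 0.30 and that of Fcgr3 and Fcgr4 at 0.38.

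Some markers of other cell types moved with Fcgr2b. Of the 6 dendritic cell markers searched, Flt3 and Itgax were in the deposited log2 table, and they had r = 0.61 and 0.61 with Fcgr2b. Itgax is also expressed by macrophages, and the summed dendritic markers reached 15.1 to 108 CPM in females and 14.1 to 126 CPM in males. The defining markers Xcr1, Zbtb46, Ccr7 and Cd209a had medians of 0.357, 0.768, 0.190 and 0.246 CPM. In the same order they were at 0 in 1, 0, 4 and 5 libraries. Of 8 granulocyte precursor markers measured, 4 were positively and 0 negatively associated with Fcgr2b, where 32.7% of all genes were positive, the highest being S100a9 (r = 0.36). Their summed level was 96.6 to 1732 CPM in females and 75.5 to 1438 CPM in males. With the mean of the granulocyte precursor markers as a covariate the r of Fcgr2b was 0.68 with Fcgr3 and -0.29 with Fcgr1, and 10 pairs passed in place of 9. The part of the dendritic cell markers in these values was not tested.

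Of markers of other lineages, the B cell marker Cd79b (median 2.08 CPM) had r = 0.38 with Fcgr2b, 0.37 with Fcgr3 and 0.25 with Fcgr4. Pf4, the platelet chemokine gene, had a median of 55.7 CPM and r = 0.40 with Fcgr2b, 0.31 with Fcgr3 and 0.22 with Fcgrt. Of the 5 osteoclast markers searched, Calcr and Ocstamp (medians of 0 and 0.677 CPM) were not in the deposited log2 table. Of the 3 measured, 2 were positively associated with Fcgr2b (Mmp9 0.42, Acp5 0.27), where 32.7% of all genes were positive. With Fcgr3 3 were positive (0.23 to 0.34), against 30.2% of all genes. With Fcgr4 2 were positive (Acp5 0.39, Ctsk 0.39), against 12.2% of all genes. All of these passed by limma, and their part in the results was not tested.

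**Figure D3:**
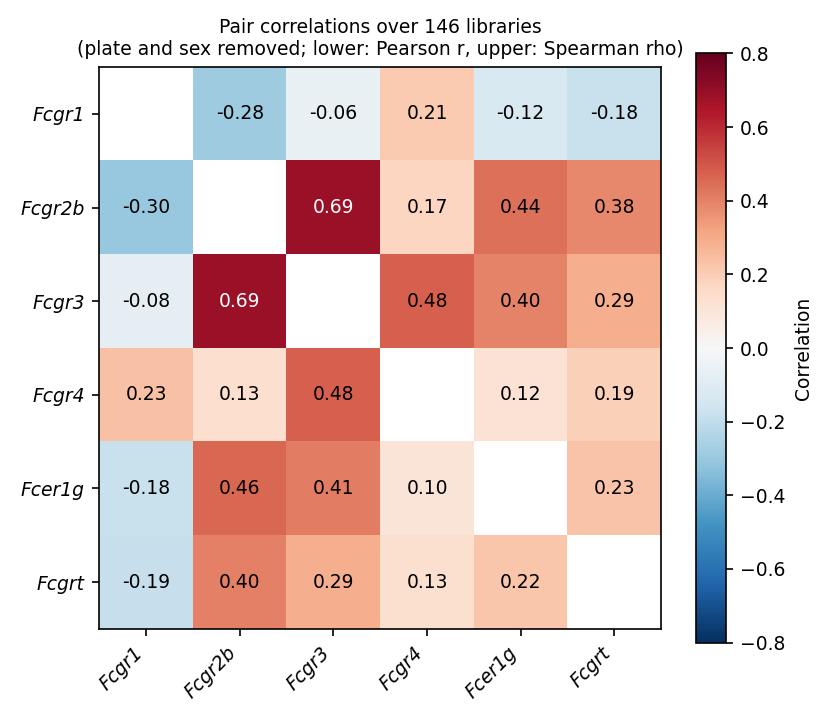
Correlation of each pair of Fc receptor genes over 146 libraries after plate and sex were removed, with Pearson r below the diagonal and Spearman rho above it (colour scale from -0.8 to 0.8). Fcgr2b with Fcgr3 is the highest (0.69) and Fcgr1 with Fcgr2b the lowest (-0.30).

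Genes of the interferon response were positively associated with Fcgr1 and negatively with Fcgr2b. Of 19 such genes measured, 18 were positively associated with Fcgr1 by limma and 0 negatively (median r = 0.39), where 18.2% of all genes were positive. The antiviral gene Ifit1 had r = 0.49 and rho = 0.47 with Fcgr1 (n = 146, adjusted p = 5.89e-07 by limma, 0.24 to 0.78 within plates, 0.44 without the 2 farthest libraries). Ifit2 had r = 0.46, Ifit3 0.45 and Oasl2 0.42. The one gene that did not pass was Irf1, with r = -0.05. With 5 principal components removed, 8 of the 19 passed.

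With Fcgr2b 16 of the 19 interferon genes were negatively and 1 positively associated (median r = -0.42), where 33.6% of all genes were negative. The antiviral enzyme gene Oas1a had r = -0.56 and rho = -0.58 (adjusted p = 5.52e-12 by limma, -0.68 to -0.44 within plates, -0.56 without the 2 farthest libraries). Ddx58, a sensor of viral RNA, had r = -0.52 and Oas2 -0.48. With the first principal component removed 11 genes passed, and with 5 removed 1 did. Fcgr3 had 14 negative and 2 positive (30.6% of all genes were negative) and Fcgrt 13 negative and 1 positive (24.4%). Fcgr4 had 4 positive and 0 negative (12.2% of all genes were positive), and Fcer1g had 0 positive and 4 negative (12.7% negative).

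The region upstream of the start shows which of these genes carry letters of interferon-linked motifs. For the activating receptors, the 150 bases before the RefSeq transcript start (GRCm38.p6) are printed on the strand of the gene, at chr3:96293970-96294119 for Fcgr1, chr1:171059404-171059553 for Fcgr3 and chr1:171018776-171018925 for Fcgr4. The start of Fcgr3 in RefSeq lies inside the longer gene of the GENCODE annotation. Capitals mark matches to the motifs named below.
Fcgr1: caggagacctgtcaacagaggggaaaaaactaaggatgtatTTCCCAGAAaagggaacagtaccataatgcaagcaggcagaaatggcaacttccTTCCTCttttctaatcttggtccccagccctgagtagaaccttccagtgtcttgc
Fcgr3: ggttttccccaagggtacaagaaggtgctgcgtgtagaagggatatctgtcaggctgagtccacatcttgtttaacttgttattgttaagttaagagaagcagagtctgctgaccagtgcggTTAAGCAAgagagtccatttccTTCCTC
Fcgr4: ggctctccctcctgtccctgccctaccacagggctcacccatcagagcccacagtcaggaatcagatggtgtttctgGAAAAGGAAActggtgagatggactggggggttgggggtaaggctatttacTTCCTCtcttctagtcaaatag
Both strands were searched. The core of the myeloid factor PU.1, GAGGAA, was found as its reverse complement in all 3 windows, starting 55, 6 and 22 bases before the start in Fcgr1, Fcgr3 and Fcgr4, and in 14.4% of 27025 promoters of the same length. A GAS-type (interferon gamma-activated) motif, TTCNNNGAA, was found in Fcgr1 as TTCCCAGAA, 109 bases before the start, and in 4.17% of promoters. An interferon-response (ISRE) type motif, which runs GAAA then NN then GAAA, was found in Fcgr4 as GAAAAGGAAA, 73 bases before the start, and in 1.60% of promoters. Fcgr3 held TTAAGCAA, a match to the C/EBP-type motif TTGCNNAA (5.48% of promoters). The windows of Fcgr2b and Fcer1g, of which 87 and 16 of 150 bases lie in GENCODE exons of the gene, held none of the motifs searched. That of Fcgrt held TGACGT (5.27% of promoters). These are letter matches within the window and no evidence of binding was measured.

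Of 13 genes of ITAM and related adaptors and receptors, 7 were positively associated with Fcgr2b and 0 negatively (32.7% of all genes were positive). The same counts held for Fcgr3 (30.2%). Fcer1g had 6 positive and 0 negative (13.4% of all genes were positive). Cd300lb, an activating receptor, had r = 0.68 with Fcgr2b, Clec7a (the beta-glucan receptor dectin) 0.64, and Hcst (an adaptor) 0.59. Trem2, a lipid-sensing receptor that uses an ITAM adaptor, had r = 0.60 with Fcgrt.

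Of 20 genes of the activating signal, 9 were positively and 4 negatively associated with Fcgr2b, where 32.7% of all genes were positive and 33.6% negative. The kinase genes Lyn, which phosphorylates the receptor motifs, and Syk had r = 0.66 and 0.53 with Fcgr2b, and the adaptor Grb2 had 0.58. Vav1, an exchange factor downstream of Syk, went the other way at r = -0.64. Fcgr3 had 9 positive and 5 negative (30.2% and 30.6% of all genes), Fcgrt 8 and 4 (22.8% and 24.4%) and Fcgr1 3 and 6 (18.2% and 17.3%). Fcgr4 had 4 and 3 (12.2% and 12.5%) and Fcer1g 3 and 3 (13.4% and 12.7%), which is near the share of all genes. The r of Lyn with Fcgr2b was 0.14 to 0.81 within the 6 larger plates.

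Of 11 genes of the inhibitory signal, 7 were negatively and 2 positively associated with Fcgr2b (median r = -0.39), where 33.6% of all genes were negative. With Fcgr3 8 were negative and 2 positive (median r = -0.31), where 30.6% of all genes were negative. Inppl1, a lipid phosphatase gene, had r = -0.62 with Fcgr2b, and Ptpn6, the tyrosine phosphatase SHP-1, had -0.52 (-0.77 to -0.19 within plates). Ptpn11, the tyrosine phosphatase SHP-2, had r = -0.55 with Fcgr3. With the first principal component removed, 0 of the 11 passed as negative with Fcgr2b.

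Of 15 genes of phagocytosis and the oxidase, 3 were positively and 5 negatively associated with Fcgr2b (32.7% and 33.6% of all genes), so the negative count was at the share of all genes. The oxidase subunit gene Cybb had r = 0.56 with Fcgr2b. Of 10 myeloid transcription factor genes, 5 were positively and 0 negatively associated with Fcgr2b (32.7% and 33.6% of all genes), among them Runx1 (r = 0.51), Klf4 (0.45) and Spi1, which encodes PU.1 (0.40). Cebpa had r = 0.37 with Fcgrt.

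**Figure D4:**
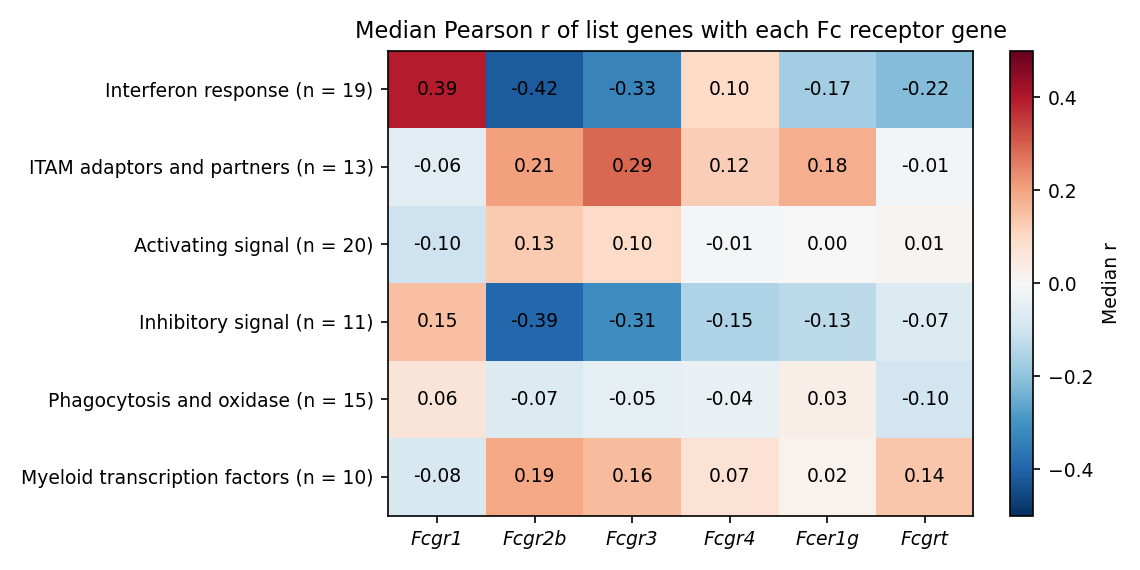
Median Pearson r (colour scale from -0.5 to 0.5, plate and sex removed, 146 libraries) of 6 gene lists with each Fc receptor gene, with the number of list genes measured in brackets. The interferon list runs from 0.39 with Fcgr1 to -0.42 with Fcgr2b, and the inhibitory signal list has -0.39 with Fcgr2b.

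Among other Fc receptors and their partners, Fcrlb had r = 0.55 and rho = 0.56 with Fcgr2b (adjusted p = 1.66e-11 by limma, 0.50 to 0.65 within the 6 larger plates). Fcrlb starts 63.6 kb from Fcgr2b and had a shared 50-base content of 0. Trim21 had r = 0.39 with Fcgr1. B2m had r = 0.59 with Fcgr3, and with its partner Fcgrt r was 0.24 (-0.20 to 0.45 within plates, the same sign on 4 of 6).

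The genes whose pattern was most like that of Fcer1g lay beside it on chromosome 1. Ly9, Slamf7 and Cd244a encode receptors of the SLAM family, which mediate contact between blood cells, and they start 373, 419 and 325 kb from Fcer1g. Ly9 ranged from 101 to 313 CPM with a median of 209.6, Slamf7 from 1.82 to 53.9 CPM with a median of 22.4 and Cd244a from 3.11 to 25.0 CPM with a median of 11.4. Ly9 had r = 0.73 and rho = 0.68 with Fcer1g (n = 146, adjusted p = 7.46e-21 by limma), with 0.61 to 0.86 within the 6 larger plates and 0.72 without the 2 farthest libraries. Slamf7 had r = 0.72 and rho = 0.70 (0.68 to 0.80 within plates), and Cd244a r = 0.65 and rho = 0.61 (0.48 to 0.79 within plates). These values held when 5 principal components were removed, at 0.76, 0.77 and 0.72. The gene bodies of Ly9 and Cd244a overlap on opposite strands, with 0 exon bases in common. Strand use in counting is not given in the sources used here, so reads from introns could not be assigned between them.

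Other genes of that region followed in part. Cd84 had r = 0.50 with Fcer1g (0.29 to 0.64 within plates) and Cd48 0.41 (-0.08 to 0.74 within plates), while Slamf6 had -0.32. With the other receptors of that chromosome, Ly9 had r = 0.03 (Fcgr2b), 0.08 (Fcgr3) and 0.11 (Fcgr4), and Slamf7 had 0.09, 0.10 and 0.12 in the same order. Cd244a had 0.20, 0.07 and -0.16. Of these 9 values that of Cd244a with Fcgr2b passed by limma (adjusted p = 0.0249) and the other 8 did not. Whether these r differ from those with Fcer1g was not tested. Cd84 passed with Fcgr2b, Fcgr3 and Fcgr4 as well (r = 0.41, 0.52 and 0.44). Of 46 measured genes that start within 2 Mb of Fcer1g, 22 were positively associated with it (47.8%, against 13.4% of all genes) and 7 negatively, and 9 (19.6%) had r over 0.4, against 0.992% of all genes. Those 9 include Ly9, Slamf7, Cd244a, Cd84 and Cd48, as well as Fcgr2b and Fcgr3, whose values are given above. The 2 Mb window was chosen after seeing the data, so these shares describe the region and are no separate test. For Fcgrt 29 of 70 were positive (41.4%, against 22.8%), and 12.9% had r over 0.4, against 4.2% of all genes. For Fcgr1 8 of 66 were positive (12.1%, against 18.2%) and 21 negative (17.3% of all genes were negative). For Fcgr2b 39.1% of 46 were positive (against 32.7%), for Fcgr3 34.8% (against 30.2%) and for Fcgr4 8.70% (against 12.2%). Neighbouring genes share their chromosome region in each mouse, and genotype was not analysed here.

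**Figure D5:**
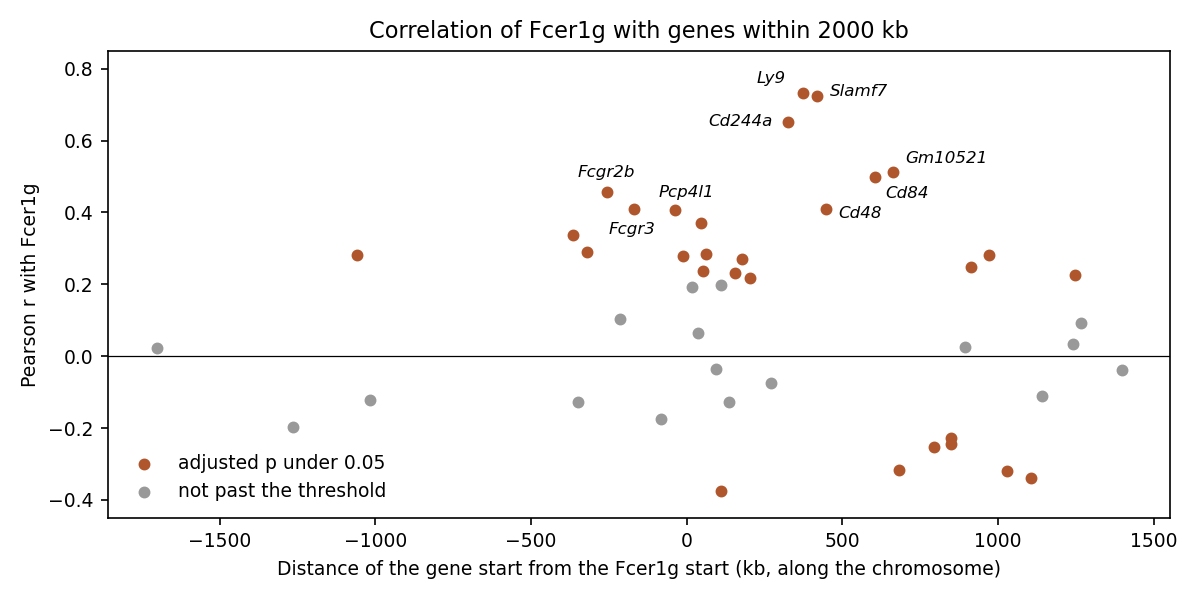
Pearson r with Fcer1g (plate and sex removed, 146 libraries) against distance between gene starts in kb, for the 46 measured genes within 2 Mb, in brown where the limma adjusted p was under 0.05. Ly9 and Slamf7, 373 and 419 kb away, have the highest r (0.73 and 0.72).

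The other genes most like each receptor lay elsewhere in the genome, with few exceptions. For Fcgr1 they were Ms4a6b (r = 0.55), the chemokine gene Ccl12 (0.55), the interferon-induced kinase gene Eif2ak2 (0.52), the chaperonin subunit Cct8 (0.51) and the translation termination factor Gspt1 (0.51). The lowest were the lysosomal enzyme Naglu (-0.54), Trappc9 (-0.53) and Txnip (-0.50), and Txnip starts 264 kb from Fcgr1. All 8 kept their sign on 6 of 6 plates.

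For Fcgr2b the highest were Gm2a, a lysosomal lipid-binding protein (r = 0.77, 0.64 to 0.89 within plates), the glycolytic enzyme Aldoc (0.75), the mitochondrial kinase Pink1 (0.74), the mitochondrial enzyme Aldh6a1 (0.74) and Pttg1ip (0.74). The lowest were the peptidase Ide (-0.74), the palmitoyltransferase Zdhhc3 (-0.73) and the helicase Ddx11 (-0.72). With 5 principal components removed, Pink1, Aldh6a1, Ide, Zdhhc3 and Ddx11 no longer passed (r = 0.15, 0.14, -0.16, -0.22 and -0.24).

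For Fcgr3 the highest were the calcium-binding S100a1 (r = 0.72, 0.68 to 0.80 within plates), the respiratory chain subunit Uqcrh (0.71), the prefoldin subunit Pfdn5 (0.70), Fam32a (0.68) and Atraid (0.67). The lowest were Cad, the enzyme that starts pyrimidine synthesis (-0.71), Pofut1 (-0.67) and Ifrd2 (-0.66). Atraid and Cad are next to each other on chromosome 5 (chr5:31048312-31054623 and chr5:31054780-31078479) and went in opposite directions with Fcgr3. For Fcgr4 the highest were the mitochondrial fission factor Mff (0.51), the transcriptional regulator Id2 (0.49) and the protease Ctso (0.48, -0.03 to 0.67 within plates). The proton pump subunit Atp6v1e1 (0.48) and Wfdc17 (0.47) came next. The lowest were Urb1 (-0.49), the mitochondrial fusion protein Mfn2 (-0.49) and the dynein partner Dctn1 (-0.48).

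For Fcgrt the highest were the reductase Dcxr (r = 0.70, 0.55 to 0.83 within plates), Unc93b1, which carries nucleic acid-sensing receptors to endosomes (0.67), the small GTPase Rac3 (0.64), the adiponectin receptor Adipor1 (0.63) and Ptov1 (0.62). Ptov1 starts 234 kb from Fcgrt. The lowest were the histone chaperone subunit Supt16 (-0.60), Wdr76 (-0.59) and the cell division gene Cdca7 (-0.58). With 5 principal components removed, Rac3, Adipor1, Supt16, Wdr76 and Cdca7 no longer passed (r = 0.21, 0.10, -0.13, -0.15 and -0.06). Beside its neighbours, Fcer1g had Pdcd6 (0.53) and Tmem9b (0.53, -0.01 to 0.81 within plates) among the highest and Herc1 (-0.50), Herc2 (-0.49) and Atp11a (-0.49) as the lowest. Of these 5 genes only Tmem9b still passed with 5 principal components removed (r = 0.32).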

How the data were processed

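RNA-seq libraries of 146 mice were sequenced as paired reads of 100 bases, per the labels. Reads were processed with TopHat2 2.0.11, HTSeq 0.6.1, FastQC and DESeq2 on GRCm38, per the submitters' processing notes. The deposited gene counts are raw whole numbers, and the authors' second table holds variance-stabilised values on a log2 scale. Names were matched for 21822 of 22721 identifiers, and the 899 without a name held 0.160% of counts. Genes were annotated from GENCODE and promoters from RefSeq (GRCm38.p6).

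Differences were tested on counts with edgeR 4.0.16 (TMM, quasi-likelihood, Benjamini-Hochberg over all genes passing the low-count filter), with limma 3.58.1 voom and DESeq2 1.42.0 as alternatives, in R 4.3.3. Associations were fitted with limma on the deposited log2 values with plate and sex, and pairs permuted 100000 times within plate. An adjusted p of 0.05 was the threshold. The named genes are the 5 highest and 3 lowest in r with each receptor (leaving out provisional names, pseudogenes and genes with 20% or more shared 50-base stretches), and up to 4 per list with the smallest p. A gene that this rule names in the phagocytosis list is not reported here. Lists were other Fc receptors, ITAM and related adaptors and receptors, activating and inhibitory signal, phagocytosis, interferon, myeloid factors and cell type markers. Genes, lists and tests were chosen with earlier results of these data known. The 2 Mb window, the motifs and the principal transcript length were chosen after seeing the data. Tested on simulated data, the sex test recovered 96 of 100 genes changed by 0.3 (log2) and 100 of 100 changed by 0.6, with 8 false calls among 12060 genes. The association test recovered 37 of 100 genes at r = 0.3 and 100 of 100 at r = 0.5, with 6 false calls among 10893. Both simulations drew genes independently of each other and without plate or date effects. The sex simulation also gave every gene the same dispersion. The real libraries differ in these respects, so the simulated rates may not carry over to them. The most similar libraries differed by more than counting noise (chi-square per degree of freedom 27.4). Nothing says how cultures were replicated beyond 1 library per mouse.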

Additional observations from a re-analysis of the deposited data

Results flagged for a closer look

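Single libraries stood far from the rest of their plate or date in 8 of 102 groups of 4 to 10 libraries tested by Dixon's criterion, which chance meets in about 1 of 20 groups. Of these, 5 concerned Fcgrt. Female 21 had 13.4 CPM of Fcgrt, the lowest on plate 1. By date label, Fcgrt stood apart at 27 CPM in female 64 (17/03/2011), at 32 CPM in male 31 (2010-02-12), at 35.3 CPM in female 23 (2010-12-08) and at 29.9 CPM in male 33 (25/11/2010). Fcgr4 stood apart at 61.8 CPM in female 18 (16/06/2011) and at 32.3 CPM in male 28 (28/10/2010). Fcgr3 stood apart at 357 CPM in female 39 (25/11/2010).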

How the results depend on the processing

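The number of receptor genes called between the sexes was 0 in all settings except without plate 10, where it was 1. The number of pairs called, 9 at first, was 5 with the first principal component removed and 3 with 5 removed. The sign of r turned, without passing the threshold in the other direction, for Fcgr1 with Fcgr3 (0.15 with the first component removed, 0.15 with 5 removed, 0.047 with the interferon mean as a covariate), Fcgr2b with Fcgr4 (-0.039 with the first component removed and -0.048 with 5 removed), and, with 5 removed, Fcgr1 with Fcgr2b (0.00047), Fcgr1 with Fcgrt (0.21), Fcgr2b with Fcgrt (-0.0092) and Fcgr4 with Fcer1g (-0.031). The number of genes associated by limma fell with the first component removed to 1558 for Fcgr1, 1398 for Fcgr2b, 990 for Fcgr3 and 1876 for Fcer1g, from 3875, 7217, 6623 and 2843. With 5 components removed it was 177 for Fcgr1, 227 for Fcgr2b, 1074 for Fcgr3, 660 for Fcgr4, 120 for Fcer1g and 349 for Fcgrt. With the date label in place of plate it was 1202 for Fcgr4, against 2688, and without plate 2 or plate 7 it was 1275 and 1175. For Fcgr1 it was 2152 with the interferon mean as a covariate, and for Fcer1g 4774 with no covariate and 1809 without plate 3. The interferon genes called with 5 components removed were 8 for Fcgr1 and 1 for Fcgr2b, and the inhibitory signal genes called with Fcgr2b were 0 with the first component and 0 with 5 removed. The counts of associated genes without a plate, with no covariate or with the interferon mean, the list counts and the interaction without libraries that go against their label were added after seeing the data. The cause of these changes was not tested. No paired analysis was possible because the labels give no replicate numbers that tie a female to a male.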
